A study of Mus musculus with 6 samples.

Results

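Cathepsins are the proteases with which lysosomes take proteins apart. This account covers 10 of their genes, Ctsa, Ctsb, Ctsc, Ctsd, Ctse, Ctsh, Ctsk, Ctsl, Ctss and Ctsz, chosen by name from the 35275 genes of a count table of mouse liver cells, and all 10 were found in it. Poly-A RNA was sequenced from CD31-positive cells of the livers of 1-year-old mice that carry p16-Cre, a recombinase under control of the p16 gene, together with the Rosa26-mTmG reporter, whose red membrane protein is replaced by green fluorescent protein (GFP) once Cre has acted. Cells held by CD31 beads were sorted by GFP into 3 GFP-positive and 3 GFP-negative libraries, so both groups share tissue, age, both alleles and the CD31 selection, and green marks any cell that has used the p16 promoter or descends from such a cell. CD31 is carried by endothelium, platelets and many leukocytes, and the protocol in the labels also describes a culture in endothelial medium, and does not say on which side of the RNA isolation it fell. Neither animals nor batches are labelled, so p-values measure the spread between libraries, which may be technical.

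Cathepsins fall into families by the residue that cuts the peptide bond. Of the 10 members, 7 are cysteine proteases (Ctsb, Ctsc, Ctsh, Ctsk, Ctsl, Ctss and Ctsz), 2 are aspartic proteases (Ctsd and Ctse) and 1, Ctsa, is a serine carboxypeptidase. They are made as inactive precursors, tagged with mannose 6-phosphate, carried to acid compartments and matured there by cutting, and cystatins and some serpins hold in check those that leak out. In the liver, Kupffer cells (the resident macrophages) and sinusoidal endothelium clear blood-borne protein through this machinery, and in cells that present antigen, cathepsins trim the invariant chain from MHC class II.

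The promoters of some members hold letters that match sites known to bind regulators of lysosomal and macrophage genes. They are shown as sequence alone, and their part in the changes of expression was not tested. RefSeq (build GRCm38.p6) gave 8 promoter windows, each from 250 bases before to 50 bases after a transcript start, for 7 members (Ctsa with 2 windows, Ctsc, Ctsd, Ctsk, Ctsl, Ctss and Ctsz). The others, Ctsb, Ctse and Ctsh, were not matched. Both strands were searched for CACGTG (the E-box), TCACGTGA (the core of the CLEAR element bound by TFEB, which contains the E-box) and GAGGAAGT (a core bound by PU.1), all picked after the expression results were known. Each line below is 30 bases, written 5′ to 3′ along the gene's own strand, with the match in capitals. A match on the opposite strand appears as the reverse complement of the searched letters and is labelled complement.
Ctsa, second window, plus strand, chr2:164833749-164833778, CLEAR core starting 13 bases before the start: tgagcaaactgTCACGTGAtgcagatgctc
Ctsa, second window, plus strand, chr2:164833766-164833795, CLEAR core starting at base 5 of the transcript: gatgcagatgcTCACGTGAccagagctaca
Ctsd, minus strand, chr7:142387908-142387937, CLEAR core starting 99 bases before the start: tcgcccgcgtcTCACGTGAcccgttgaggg
Ctsl, minus strand, chr13:64370739-64370768, E-box starting 236 bases before the start: ggcgttagaagcCACGTGctgatctaaatt
Ctss, plus strand, chr3:95526773-95526802, complement of the PU.1 core starting 2 bases before the start: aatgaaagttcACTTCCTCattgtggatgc
Ctsc, plus strand, chr7:88277923-88277952, complement of the PU.1 core starting 151 bases before the start: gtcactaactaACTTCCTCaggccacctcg

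An E-box stood in 3 of the 8 windows (Ctsa, Ctsd and Ctsl), against 7.15% of all 32851 promoter windows in the same table. The CLEAR core stood in 2 of the 8, against 0.974% of all windows, and the PU.1 core in 2 of the 8, against 3.20%. Ctsd held another E-box, 245 bases before its start. The windows of Ctsk and Ctsz and the first window of Ctsa held none of these letters. These are matches of letters, not measured binding.

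The libraries held 16766556 to 22627555 counts. Cdkn2a, the gene of p16, held 15, 27 and 7 counts in the GFP-positive libraries and 0 in each GFP-negative one. It was too scarce to be tested. Pecam1, which encodes CD31, stood at 342 ± 41.0 CPM (counts per 1000000 of the library total, after TMM scaling) in GFP-negative and 453 ± 58.5 CPM in GFP-positive libraries (mean ± SD, n = 3 each; edgeR adjusted p = 0.123). Markers of other cell types were present in both fractions and are given further on.

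The comparison of the fractions asks how cells marked by past p16 promoter activity differ from unmarked cells. Cathepsin transcripts were far more abundant in the GFP-positive fraction. Together the 10 genes took 0.469%, 0.479% and 0.511% of all counts in the GFP-negative libraries and 1.49%, 1.73% and 1.73% in the GFP-positive libraries, a difference of 1.16 percentage points. The groups did not overlap, and p was 0.1 in an exact permutation test (two-sided), which is as low as 3 libraries against 3 can reach. In summed CPM this was 4834 ± 180 against 16672 ± 1086 (mean ± SD, n = 3 each), or 3.45-fold. Of the 10 members, all 10 passed the filter on low counts, 6 rose, 1 fell and 3 did not pass an adjusted p of 0.05 in edgeR's quasi-likelihood test. Over all 12122 genes tested, 7.65% were called higher, 10.1% lower and 17.8% in either direction. The median log2 fold change of the members was 1.53, also with Ctse set at its bound, against −0.09 for all genes tested. In bulk RNA, more cells of a type and more RNA per cell cannot be told apart.

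**Figure D1:**
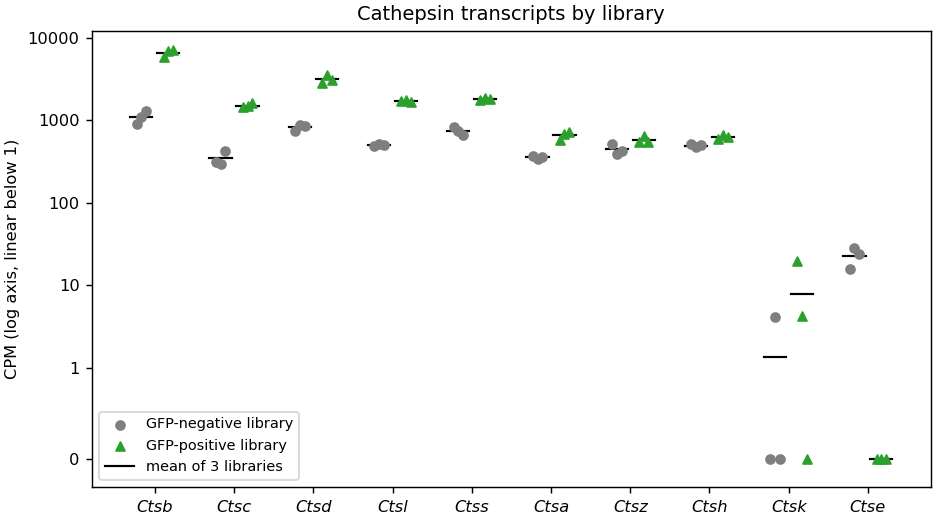
CPM of each cathepsin in each of the 6 libraries, on a log axis that is linear below 1 (grey circles GFP-negative, green triangles GFP-positive, bars the mean of 3 libraries). In 8 genes every GFP-positive library lies above every GFP-negative one, Ctse is at 0 in all GFP-positive libraries, and Ctsk overlaps.

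Ctsb, a cysteine protease that trims pairs of residues from the ends of proteins and also cuts within them, changed most among the members that rose. It stood at 891, 1095 and 1293 CPM in GFP-negative libraries 1 to 3 and at 5902, 6876 and 7061 CPM in GFP-positive libraries 1 to 3. The lowest GFP-positive library thus lay well above the highest GFP-negative one. The log2 fold change was 2.60 ± 0.15 (SE; edgeR adjusted p = 0.000125), a 6.05-fold rise.

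Ctsd, the main aspartic protease of lysosomes, stood at 741, 888 and 851 CPM in GFP-negative and 2869, 3500 and 3083 CPM in GFP-positive libraries. It rose by a log2 difference of 1.93 ± 0.12 (edgeR adjusted p = 0.000130). Ctsl, a cysteine endopeptidase, varied little within either group, at 491, 516 and 495 CPM against 1721, 1764 and 1660 CPM. Its standard deviation was 2.70% of the mean in the GFP-negative and 3.05% in the GFP-positive group, and it rose by 1.78 ± 0.09 (edgeR adjusted p = 5.3e-05).

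Ctsc, dipeptidyl peptidase I, activates the serine proteases of leukocyte granules by removing a dipeptide from their ends. It stood at 314, 296 and 427 CPM in GFP-negative and 1452, 1472 and 1600 CPM in GFP-positive libraries, with GFP-negative library 3 above the other two. It rose by 2.12 ± 0.16 (edgeR adjusted p = 0.000326).

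Ctss, which completes the trimming of the invariant chain in B cells, dendritic cells and macrophages and stays active at neutral pH, rose less. It stood at 832, 741 and 658 CPM in GFP-negative and 1748, 1845 and 1817 CPM in GFP-positive libraries, without overlap, and its log2 fold change was 1.28 ± 0.11 (edgeR adjusted p = 0.000559). Ctsa, whose protein also protects the lysosomal sialidase and β-galactosidase, stood at 372, 343 and 363 CPM against 584, 687 and 718 CPM. It rose by 0.88 ± 0.12 (edgeR adjusted p = 0.00440).

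Ctsz, a carboxypeptidase that removes 1 residue at a time, and Ctsh, an aminopeptidase, did not pass the test. Ctsz stood at 523, 391 and 427 CPM in GFP-negative and 547, 646 and 552 CPM in GFP-positive libraries, with a log2 difference of 0.38 ± 0.15 (edgeR adjusted p = 0.138). Ctsh stood at 512, 473 and 498 CPM against 591, 662 and 635 CPM, with a log2 difference of 0.35 ± 0.11 (edgeR adjusted p = 0.0673), and passed in DESeq2 (adjusted p = 0.00356). Neither gene's libraries overlapped between the groups. Groups did not overlap in 9 of the 10 members, 8 upward and 1 downward, against 42.4% of all genes tested, 18.5% upward and 23.9% downward. For Ctsz the gap between the groups was smaller than the SD within either.

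Ctse, an aspartic protease of endosomes rather than lysosomes, was the member that fell. It held 306, 509 and 556 counts (15.8, 28.1 and 24.2 CPM) in GFP-negative libraries 1 to 3 and 0 counts in every GFP-positive library. Set against a floor of 3 counts over the GFP-positive group (0.0584 CPM), this is at least 389-fold lower, a bound that covers counting error only. The edgeR adjusted p was 0.00583, and 0.0443 at most, without GFP-negative library 2. B cell markers were also low in these libraries, at a summed 10519 to 11009 CPM in the GFP-negative and 53.4 to 130 CPM in the GFP-positive group, and their part in the value of Ctse was not tested.

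Ctsk, the collagen-cutting cathepsin of osteoclasts and some fibroblasts, was scarce and uneven. It held 316, 73 and 0 counts in GFP-positive libraries 1 to 3 and 0, 74 and 0 counts in GFP-negative libraries 1 to 3, so the groups overlapped. The log2 difference, 2.54 ± 2.78, fell short of the threshold (edgeR adjusted p = 0.614). Without GFP-positive library 1 it was 0.65, and without GFP-negative library 2, the only one of its group with counts, it was 10.22. In the GENCODE M21 annotation, Ctsk and Ctss are neighbouring protein-coding genes on the same strand of chromosome 3. Stellate cell and fibroblast markers summed to 28.2 to 101 CPM in GFP-negative and 158 to 237 CPM in GFP-positive libraries, and their part in the value of Ctsk was not tested.

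**Figure D2:**
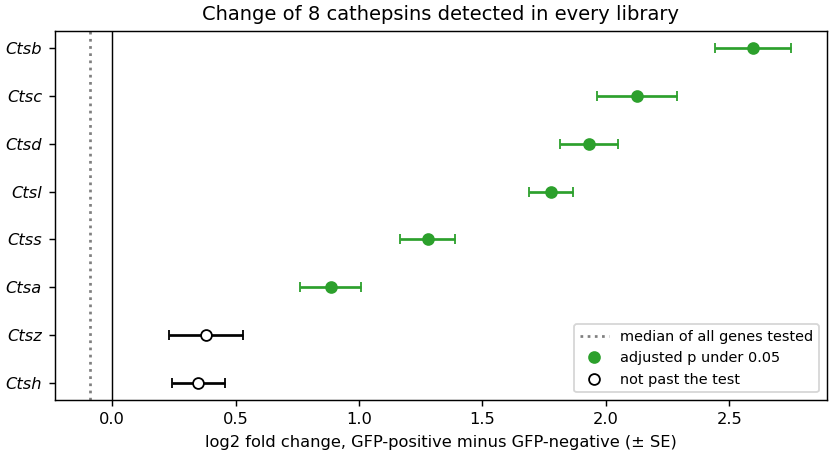
Log2 fold change (GFP-positive minus GFP-negative, bars ± SE of edgeR's fit, 3 libraries each) of the 8 cathepsins detected in every library, with the median of all genes tested as a dotted line. Values run from 2.60 for Ctsb to 0.35 for Ctsh, and Ctsz and Ctsh (open circles) did not pass the test.

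All 7 calls, 6 higher and 1 lower, held in each of the 6 fits that left out 1 library. Reads that 2 genes share could add to some values or be left out of them. No source used here gives the strand setting of the authors' counting or how it treated such reads. In GENCODE M21 the exons of Ctsa overlap those of Pltp, on the other strand, over 495 bases. Pltp held 1545, 1346 and 3343 counts in GFP-negative and 6749, 8767 and 10624 counts in GFP-positive libraries, and its part in the value of Ctsa was not tested. Exons of Ctsb overlap those of Fdft1 on the other strand over 774 bases. Fdft1 held 201 to 615 counts against at least 17241 for Ctsb. Any reads of Ctsb left out in the overlap cannot be seen from these counts. On the same strand, Ctsd shares 670 exonic bases with Gm49369 and Ctsl 395 with the pseudogene Gm49230. Ctsl also shares 1742 with Gm47123 on the other strand. None of these models has an entry in the count table, so any reads from them cannot be seen. The levels of Ctsd and Ctsl are uncertain to that extent.

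The members did not rise in proportion, so the make-up of the cathepsin pool differed between the fractions. Ctsb made up 19.0%, 22.9% and 25.7% of the 10 genes' counts in GFP-negative libraries and 38.2%, 39.4% and 41.2% in GFP-positive ones. Shares of Ctsa, Ctse, Ctsh, Ctss and Ctsz were lower in every GFP-positive library than in any GFP-negative one. Ctsh went from 10.2 ± 0.587% to 3.78 ± 0.0620% and Ctsz from 9.27 ± 1.63% to 3.49 ± 0.242% (mean ± SD, n = 3 each). Ctss went from 15.4 ± 2.33% to 10.8 ± 0.425%. Of the genes whose shares were lower, only Ctse was also lower in CPM. Ctsa, Ctsh, Ctss and Ctsz were higher in CPM in every GFP-positive library, Ctsh and Ctsz without passing the test. The share of Ctsl was 10.4 ± 0.493% against 10.3 ± 0.753% and overlapped, as did those of Ctsd, Ctsc and Ctsk. With counts divided by transcript length, the shares of Ctsd, Ctsc and Ctsl were higher in every GFP-positive library than in any GFP-negative one, by 5.19, 3.03 and 1.97 percentage points against 1.79, 1.94 and −0.05 without the division, and the difference for Ctsa was −1.58 in place of −3.47 points. For each of the 6 shares that did not overlap, p was 0.1 by exact permutation (two-sided), the lowest possible, and 0.167 adjusted over the 10 members, so none passed.

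**Figure D3:**
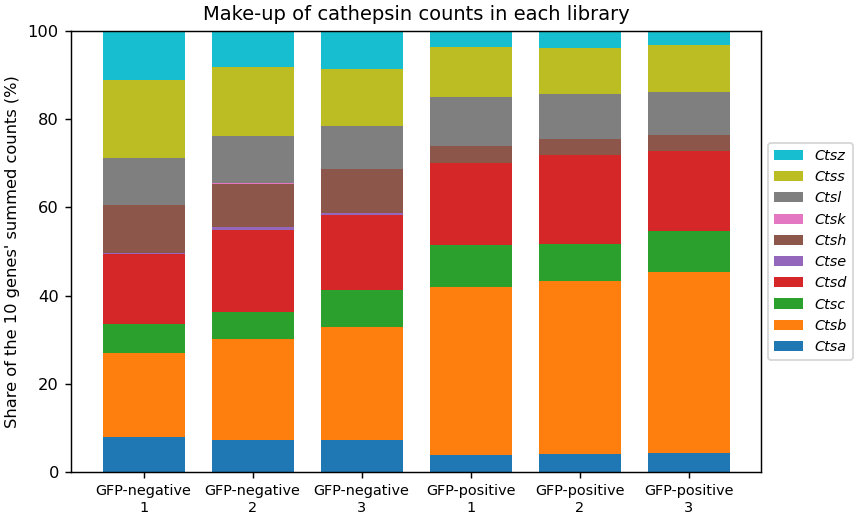
Stacked bars of each cathepsin's share (%) of the 10 genes' summed counts in each of the 6 libraries, with no correction for length. The Ctsb block spans 19.0% to 25.7% in the GFP-negative and 38.2% to 41.2% in the GFP-positive libraries, while the Ctsh and Ctsz blocks are narrower in the latter.

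Levels were compared between genes only after division by transcript length (CPM per kilobase of the shortest principal transcript in GENCODE M21). In the GFP-negative group the order was Ctss (549 ± 63.9 CPM per kilobase, mean ± SD, n = 3), Ctsd (389 ± 36.0), Ctsz (310 ± 47.4), Ctsh (306 ± 12.3), Ctsl (254 ± 6.87), Ctsb (230 ± 42.3), Ctsc (139 ± 28.5), Ctsa (98.5 ± 4.15), Ctse (10.7 ± 2.95) and Ctsk (0.900 ± 1.56). The libraries of Ctsd and Ctsz, of Ctsz and Ctsh, and of Ctsl and Ctsb overlapped, so these neighbours did not part. In the GFP-positive group Ctsd (1481 ± 151), Ctsb (1394 ± 131) and Ctss (1331 ± 37.0) led with overlapping neighbours. They were followed by Ctsl (870 ± 26.5), Ctsc (605 ± 32.3), Ctsz (404 ± 38.4), Ctsh (389 ± 22.3), which overlapped Ctsz, and Ctsa (182 ± 19.2). Ctsk (5.25 ± 6.81) and Ctse, at 0, came last. Ctsb thus stood at place 6 in the GFP-negative and 2 in the GFP-positive group. These places depend on the transcript taken: with the longest transcript, of 6168 bases in place of 1971, Ctsl stood at 81.2 and 278 CPM per kilobase, at place 8 in the GFP-negative and 7 in the GFP-positive group. Ctsc, with 3220 bases in place of 2493, then stood at 107 and 468 CPM per kilobase. The genes that Ctsl dropped below moved up by 1 place, Ctsb to place 5 in the GFP-negative group, while its place in the GFP-positive group was 2 with either length.

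The genes with the most similar profile were found by the root-mean-square difference of centred log2 CPM over the 6 libraries, a description that mostly reflects the size of the change between fractions. Apart from the other cathepsins, only tested genes outside the lists, without clone names and above a minimum mean abundance, were compared. Nearest to Ctsb was Creg1 (0.0955), nearest to Ctsl and Ctsd among genes outside the lists was Apoe (0.0626 and 0.133), and nearest to Ctsc was Cflar, with Ptgs1 next (0.106). Nearest to Ctss was Aass (0.0596), to Ctsa Timp3 (0.0558), to Ctsh Acaa1a (0.0440) and to Ctsz Cotl1 (0.0437). Ctsd and Ctsl were each other's nearest cathepsin (0.123), as were Ctsh and Ctsz (0.107), and Ctsa and Ctss (0.234). Ctse lay nearest to H2-Eb2 (0.288), whose log2 fold change was −9.06, and was 2.94 away from its nearest cathepsin, Ctsh. Ctsk had no close neighbour among the genes compared, the nearest being Susd4 at 1.33. Ctsk and Ctse themselves lay below the minimum abundance, and genes as scarce as they were left out of the search. For Ctse, without counts in any GFP-positive library, the distances also depend on the small constant added before logs were taken.

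Few other cathepsin genes were detected. Of 13 further genes, 9 had 0 counts in every library (Ctsq, Ctsr, Ctsj, Ctsm, Cts3, Cts6, Cts7, Cts8 and Ctsll3, most of them known from the rodent placenta), and Ctsg, of neutrophil granules, held 31 counts in GFP-positive library 2 alone. The 3 that could be tested, Ctsf, Ctso and Ctsw, did not pass edgeR's test, 1 of them (Ctsf) having an unadjusted p under 0.05 and 1 (Ctsf again) passing in DESeq2. Ctsf stood at 28.3, 5.02 and 15.8 CPM in GFP-negative and 69.5, 29.4 and 76.0 CPM in GFP-positive libraries, a log2 difference of 1.83 ± 0.69 (edgeR adjusted p = 0.123; DESeq2 adjusted p = 0.0352). Ctso stood at 143, 118 and 203 CPM in GFP-negative and 169, 193 and 310 CPM in GFP-positive libraries, which overlapped, and had a log2 difference of 0.53 ± 0.30 (edgeR adjusted p = 0.295). Ctsw, of cytotoxic lymphocytes, had one of −2.59 ± 2.03 (edgeR adjusted p = 0.465). Without GFP-positive library 1, which held 82 of its 83 counts in that group, Ctsw passed (edgeR adjusted p = 0.0455).

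Proteases that work beside the cathepsins changed in both directions. Of 7 other lysosomal proteases, 3 rose, 1 fell and 3 missed the threshold, with a median log2 fold change of 0.71. Beside this list and those below stands the share over all genes tested, 7.65% called higher and 10.1% lower. Lgmn, the asparaginyl endopeptidase that matures several cathepsins, stood at 276, 271 and 265 CPM in GFP-negative and 831, 1065 and 1021 CPM in GFP-positive libraries and rose by 1.85 ± 0.13 (edgeR adjusted p = 0.000211). Cpq, a carboxypeptidase, rose by 3.24 ± 0.32 (edgeR adjusted p = 0.000892). Napsa, an aspartic protease related to Ctsd and Ctse, moved the other way, from 712, 598 and 543 CPM to 3.16, 4.49 and 3.05 CPM, with a log2 difference of −7.43 ± 0.25 (edgeR adjusted p = 1.5e-05). Ctse and Napsa were therefore both low in the GFP-positive libraries, where Ctsd, the other aspartic protease named here, was high. Tpp1, a tripeptidyl peptidase, rose by 0.90 ± 0.21 (edgeR adjusted p = 0.0296), a call lost without GFP-negative library 1 or 3 or GFP-positive library 1 or 3 (0.0679 to 0.104).

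Most inhibitors of cathepsins that could be tested rose as well. Of 16 inhibitor genes 7 had 0 counts throughout (Cst6, Stfa1, Stfa2, Stfa3, Csta1, Serpinb3a and A2m), and of the 9 tested 6 rose, 1 fell and 2 missed the threshold (median 1.14). Cst3, the secreted cystatin C, stood at 565, 595 and 509 CPM against 1269, 1155 and 969 CPM and rose by 1.02 ± 0.13 (edgeR adjusted p = 0.00345). Serpinb6a, a serpin of the cytosol, rose by 1.83 ± 0.19 (edgeR adjusted p = 0.00140). Ctla2a and Ctla2b, mouse genes for small proteins that resemble cathepsin propeptides, rose by 1.98 ± 0.21 and 2.14 ± 0.26 (edgeR adjusted p = 0.00133 and 0.00257), values to be read together, since the pair are close paralogs and how the authors' counting treated reads that match both is not given. The lower member was Kng1, a kininogen of plasma made by hepatocytes, at −1.17 ± 0.30 (edgeR adjusted p = 0.0361), whose call was lost in every fit without 1 library except that without GFP-positive library 1 (0.0618 to 0.119). Hepatocyte markers summed to 2349 to 2522 CPM in GFP-negative and 1190 to 1698 CPM in GFP-positive libraries, and their part in the value of Kng1 was not tested. Without GFP-negative library 1 or 2, 4 inhibitors passed, all higher. Serpinb1a, a serpin of leukocytes that is named here because of its values, stood at 236, 205 and 198 CPM in GFP-negative and 19.8, 0.117 and 0 CPM in GFP-positive libraries. The groups did not overlap, and its log2 fold change of −5.01 ± 1.77 was short of the threshold (edgeR adjusted p = 0.103). Without GFP-positive library 1, the highest of its group, it passed (edgeR adjusted p = 0.000465).

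Genes of delivery to the lysosome showed no common direction. Of 16 tested, 2 rose, 2 fell and 12 missed the threshold, with a median of 0.03. Over all genes tested, 17.8% were called in either direction. Gga2, an adaptor that loads mannose 6-phosphate receptors into carriers, fell by 2.31 ± 0.18 on the log2 scale (edgeR adjusted p = 0.000300), and Ap1m1, a subunit of the adaptor AP-1, had a log2 difference of −1.23 ± 0.29 (edgeR adjusted p = 0.0292). Scarb2, the receptor of glucocerebrosidase, stood at 1.30 ± 0.26 (edgeR adjusted p = 0.0180) and Vps29, a retromer subunit, at 1.01 ± 0.26 (edgeR adjusted p = 0.0360). Of these only Gga2 kept its call in all fits without 1 library. Scarb2 lost its own without any 1 GFP-negative library (0.0590 to 0.0775), Ap1m1 without any of these or GFP-positive library 2 (0.0638 to 0.0971), and Vps29 without any of these or GFP-positive library 1 or 2 (0.0631 to 0.125). Without GFP-negative library 1, 2 or 3, 1 gene passed, and without GFP-positive library 2, 2 did. The most abundant members, Vps35 and Ap1b1, stood at 0.62 ± 0.27 and 0.29 ± 0.18 (edgeR adjusted p = 0.178 and 0.350).

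Lysosomal proteins that cathepsins cut, bind or lie beside rose in 6 of 9 cases, with 1 lower and 2 not past the test (median 1.05). Grn, progranulin, which cathepsins cut into granulins, stood at 130, 168 and 166 CPM in GFP-negative and 895, 1059 and 1212 CPM in GFP-positive libraries and rose by 2.77 ± 0.17 (edgeR adjusted p = 0.000139). Cd68, a lysosomal glycoprotein used as a macrophage marker, rose by 3.25 ± 0.25 (edgeR adjusted p = 0.000308). Lamp1 and Lamp2, the main glycoproteins of the lysosomal membrane, rose by 1.05 ± 0.13 and 1.46 ± 0.09 (edgeR adjusted p = 0.00295 and 0.000139), and Psap, the saposin precursor, by 0.89 ± 0.14 (edgeR adjusted p = 0.00679). Laptm5, a lysosomal membrane protein of blood cells, fell by 1.15 ± 0.12 (edgeR adjusted p = 0.00133).

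Among regulators of lysosomal genes, 1 was higher, 2 were lower and 5 did not pass, of 8 tested (median −0.07). Tfeb, the factor that binds the CLEAR element shown for Ctsa and Ctsd, stood at 47.9, 38.8 and 51.7 CPM in GFP-negative and 5.70, 5.36 and 7.04 CPM in GFP-positive libraries. It fell by 2.93 ± 0.41 (edgeR adjusted p = 0.00447) while both of those cathepsins rose, and its part in their values was not tested. Tfec, a related factor of macrophages, stood at 1.17 ± 0.34, short of the threshold (edgeR adjusted p = 0.0558). Lamtor1, which anchors mTORC1 control to lysosomes, stood at 0.74 ± 0.18 (edgeR adjusted p = 0.0293) and Flcn, folliculin, at −0.83 ± 0.21 (edgeR adjusted p = 0.0358). Lamtor1 lost its call without any 1 library other than GFP-positive library 3 (0.0516 to 0.102), and Flcn lost its own whichever library was left out (0.0663 to 0.121). In every fit without 1 library except that without GFP-positive library 3, 1 regulator passed, lower, and DESeq2 called 5.

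MHC class II genes, whose invariant chain Ctss and Ctsl trim, moved against the cathepsins. Of 11 tested, 8 fell and 3 missed the threshold (median −1.53). Cd74, the invariant chain itself, had a log2 difference of −2.18 ± 0.05 (edgeR adjusted p = 9.1e-06), and the class II chains H2-Ab1, H2-Eb1 and H2-Aa ones of −1.53 ± 0.09, −1.46 ± 0.07 and −1.37 ± 0.09 (edgeR adjusted p = 0.000118, 5.2e-05 and 0.000137). The granule proteases that Ctsc activates were scarce. Of 8, only Gzma and Gzmb could be tested, and neither passed edgeR's test or had an unadjusted p under 0.05 (log2 fold changes 1.49 ± 1.71 and 0.44 ± 2.37), while in DESeq2, which tested more of the list, 3 were called, all lower.

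**Figure D4:**
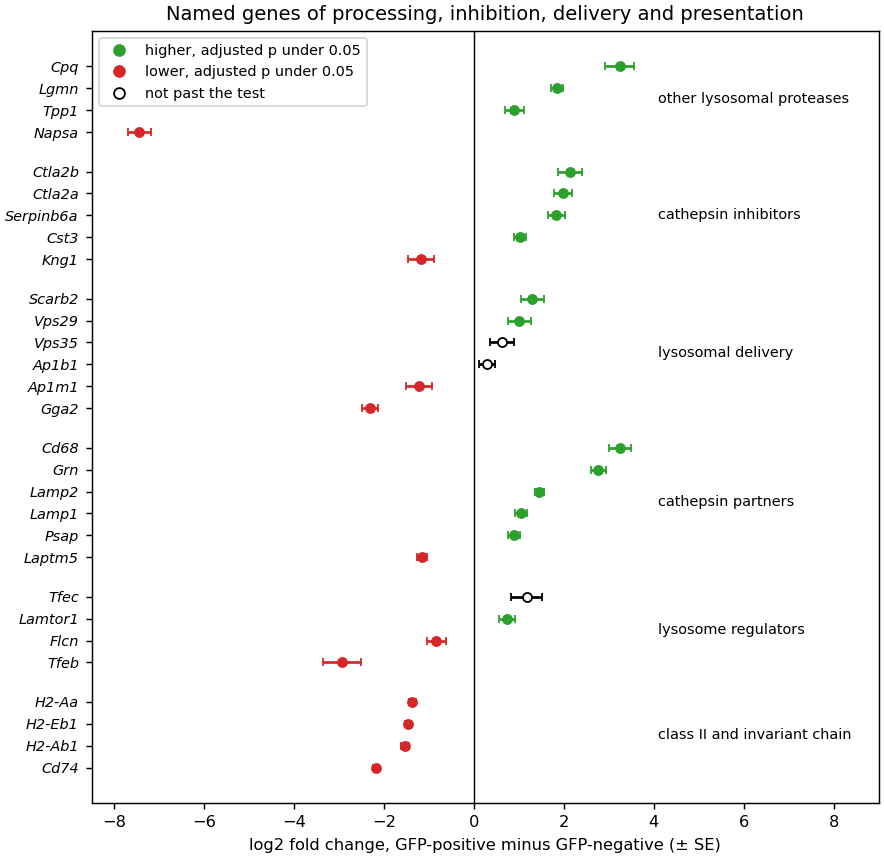
Log2 fold change (GFP-positive minus GFP-negative, bars ± SE of edgeR's fit, 3 libraries each) of the named genes in 6 lists around the cathepsins, coloured by call. Inhibitors and partners lie mostly above 0, Napsa lies at −7.43, Tfeb at −2.93, and the class II genes lie below 0.

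Cell type markers also differed between the fractions, some lists higher and some lower in the GFP-positive libraries. Their part in the results was not tested. Kupffer cell markers were higher in 9 of 9 cases, summing to 868 to 1137 CPM in GFP-negative and 13578 to 14855 CPM in GFP-positive libraries (median log2 fold change 3.999). Macrophage and monocyte markers were higher in 7 and lower in 1 of 12 tested, with sums of 1011 to 1291 and 14001 to 14606 CPM. Without GFP-negative library 3, 5 of them passed, all higher. Sinusoidal endothelial markers were higher in 8 of 9, with sums of 4474 to 5004 and 10491 to 12190 CPM, and pan-endothelial markers in 8 of 13, with sums of 2419 to 2723 and 5057 to 6137 CPM. Without GFP-negative library 2 or 3, 5 pan-endothelial markers passed. B cell markers were lower in 11 of 11, with Pax5 at 0 in GFP-positive libraries. Of 8 T and NK cell markers tested, 1 (Cd8a) was called lower and 7 did not pass, with sums of 355 to 447 and 13.4 to 56.2 CPM, and with Cd8a and Ncr1 at 0 in GFP-positive libraries and Klrb1c in all. Of 7 dendritic cell markers tested, 1 was called lower, Ccr7, which B and T cells also use. It carried the sums of that list, 3096 to 3636 and 88.5 to 142 CPM, and stood at 3359 and 27.3 CPM on average, while the other 6 did not pass. Platelet markers, of cells that also carry CD31, were higher in 3 of 4, with sums of 582 to 727 and 1558 to 1812 CPM. Of 4 erythroid markers none passed edgeR's test, although all 4 had an unadjusted p under 0.05 and DESeq2 called 3, and the sums were 5386 to 7482 and 38.5 to 1005 CPM. Plasma cell markers were lower in 2 of 5, with sums of 261 to 298 and 5.83 to 24.7 CPM, and cholangiocyte markers summed to 6.29 to 11.1 and 0 to 0.233 CPM. Neutrophil markers were near 0, at 3.09 to 5.35 and 1.61 to 11.2 CPM, with Ly6g and Ltf at 0 throughout.

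The cathepsins' 3.45-fold rise in summed CPM lay between those of the endothelial and the macrophage lists. Clec4g, a lectin of sinusoidal endothelium, rose by 1.32 ± 0.12 and Kdr, a receptor of vascular endothelial growth factor, by 1.31 ± 0.19 (edgeR adjusted p = 0.000691 and 0.00498). Clec4f, a Kupffer cell lectin, rose by 3.999 ± 0.19 and Lyz2, lysozyme, by 3.603 ± 0.12 (edgeR adjusted p = 5.2e-05 and 1.5e-05). Cd79a, a B cell receptor chain, fell by 7.04 ± 0.55 (edgeR adjusted p = 0.000359). Ppbp, a platelet chemokine, rose by 1.59 ± 0.13 (edgeR adjusted p = 0.000355). Hbb-bs, a haemoglobin chain, stood at −4.41 ± 1.33 (edgeR adjusted p = 0.0636). With immunoglobulin genes and the markers of B, plasma, T and NK cells left out before scaling, the 6 higher members and the lower one passed as before.

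**Figure D5:**
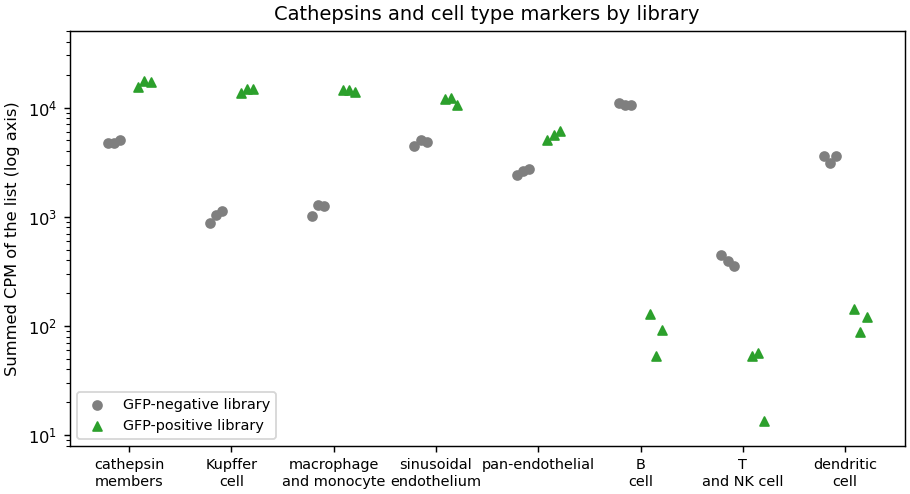
Summed CPM (log axis) of the 10 cathepsins and of 7 cell type marker lists in each of the 6 libraries (grey circles GFP-negative, green triangles GFP-positive). The cathepsins rise from 4691 to 5037 CPM to between 15433 and 17457 CPM, the sums of the Kupffer cell, macrophage and endothelial lists are also higher in every GFP-positive library, and those of the B cell, T and NK cell and dendritic cell lists are lower, the last through Ccr7.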

How the data were processed

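Raw counts per Ensembl gene were deposited by the authors in 1 table of the 6 libraries, with 35275 identifiers, 34490 of them matched to a symbol and 16436 at 0 throughout. HTSeq 0.6.1, TopHat2 2.0.12, Bowtie2 2.2.3, edgeR, RSEM and DESeq 1.18.0 appear in the submitters' processing notes, with no role stated. Build, annotation and strand setting are not given in the sources used. Transcript lengths come from GENCODE M21. Libraries were grouped by their sort label.

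The fit used edgeR 4.0.16 under R 4.3.3, with its filter with a minimum count of 10, TMM scaling, robust dispersions, the quasi-likelihood test and Benjamini-Hochberg adjustment over the 12122 genes tested. The script was tested on simulated data. DESeq2 1.42.0, other scalings, no filter and leaving out each library were alternatives. Standard errors derive from the test statistic. Reads carry no molecular identifiers, so floors cover counting error only.

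The members, the 8 pathway and 14 marker lists and the tests were chosen with earlier results of these data known. All members were named. From each pathway list came the 4 smallest p, members called against the list and the 2 most abundant; from each marker list, the 2 most abundant were eligible, of which some are given, beside defining markers at 0. Serpinb1a was added after its values were seen.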

Additional observations from a re-analysis of the deposited data

How the results depend on the processing

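The 7 cathepsin calls held under all 12 alternatives, and DESeq2 added Ctsh (adjusted p = 0.00356; 0.0673 in edgeR, up to 0.201 under the other alternatives) to make 8. The difference in the cathepsins' share of all counts kept its direction under all 8 of its alternatives. The count of genes past the test was 2157, 3791 with DESeq2 and 994 to 1810 without 1 library each. Among lysosome regulators DESeq2 called 5 in place of 3. Within the cathepsin pool, the difference in the share of Ctsl, −0.05 percentage points, turned to 1.97 with counts per transcript length and ranged from −0.470 to 0.260 without 1 library each, positive without GFP-negative library 2 (0.168) or GFP-positive library 2 (0.0531) or 3. That of Ctsk ranged from −0.0163, without GFP-positive library 1, to 0.0504. The cause was not tested. The median log2 fold change of all genes tested was −0.09, −0.12 with library totals alone and −0.27 without the filter. With 3 libraries a group, exact tests cannot go below 0.1. No paired analysis was possible because the labels give the groups no shared replicate number.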

Other observations

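Ctsk, with 316 counts in 1 GFP-positive library and 0 in another, was not alone in this. Of 11535 genes that reached 50 counts in at least 1 GFP-positive library, 1743 (15.1%) had 0 counts in another library of that group, and of 12233 such genes in the GFP-negative group 1176 (9.61%) did. The highest count beside a 0 was 1238 in the GFP-positive and 1293 in the GFP-negative group. Among the 10 cathepsins this was seen in Ctsk alone, in both groups.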
